A study of Mus musculus with 6 samples.

Results

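The probes described here are named by a genome position and a strand in place of a gene. Their names have the form of a chromosome with a start and an end in the mm9 build, followed by F or R, read here as the forward and reverse strand. Of 55681 probes on the array that are not controls, 16181 carried such a name, and 15604 of these lay on chromosomes 1 to 19. The 4740 probes described (30.4%) were chosen by a measured value, the scanner software's mark for a signal well above background, which had to be set in all 3 PVBL or all 3 sham samples. Which probes were detected is therefore a description and was not tested. Total RNA of the liver of male C57BL/6J mice was labelled with Cy3 and read on 6 one-colour Agilent arrays. In the PVBL group of 3 samples the left branch of the portal vein had been ligated (PVBL) and the right lobe, which regenerates, was taken at day 3. The sham group of 3 samples came from mice with a sham operation, whose right lobe was taken at the same time. The labels name no other allele or agent, and give no age.

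Long intergenic non-coding RNAs are transcripts from DNA between protein-coding genes that carry no long open reading frame. Many are spliced and polyadenylated like mRNA, are present at low levels and differ widely between tissues. Some act in the nucleus on chromatin or on nearby genes, and for most no role is known. When portal blood is cut off from part of the liver, the part that still receives it grows, and its hepatocytes leave rest and divide. Whether the named regions lie between genes could not be checked on mm9 here, and the files name no gene beside them, so each region is given by its position alone.

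Levels are log2 of the processed signal minus the array's 75th percentile over all probes that are not controls, so a level of 0 is the signal of that percentile. From 48.1% to 53.6% of all probes were detected per array, no spot was saturated, and the 75th percentile corresponded to signals of 203 to 407. All 6 arrays lay on 1 slide, with the groups in different rows of it, so row and operation cannot be told apart; the rows are read from the names of the scanner outputs and stand in no label or header. The labels do not say whether each sample is a mouse of its own, so the spread behind the p-values may be technical. In whole-liver RNA, fewer cells of a type and less RNA per cell cannot be told apart. The liver markers read as labelled. The 6 hepatocyte genes, such as Alb and Ttr, were detected on every array and none was called (median difference -0.33). Their summed level was nevertheless 11.09 to 11.56 in PVBL against 11.59 to 11.69 in sham, without overlap. Tat and Cps1 differed most, by -0.77 and -0.7 (adjusted p = 0.0692 and 0.055). The 4 proliferation genes Mki67, Top2a, Ccnb1 and Cdk1 were all higher after PVBL, and their summed level was 4.58 to 5.0 in PVBL against -1.21 to -0.7 in sham. Mki67, Ccnb1 and Cdk1 were detected on every array. Top2a was above background on no sham array, so it entered the test through PVBL only, which selects for signal there.

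The 15604 probes covered 3387 regions, of which 1042 had probes on both strands. Regions were 62 to 7128487 bases long with a median of 7451, and a strand of a region carried a median of 3 probes and at most 10. Detection was alike on both strands, with 2385 of 7890 forward probes kept (30.2%) and 2355 of 7714 reverse probes (30.5%). Probes of regions up to 1 kb were kept in 24.8% of cases, against 30.4% to 31.8% in the longer classes. On single arrays 27.5% to 32.7% of the position-named probes were well above background in PVBL and 32.3% to 35.7% in sham. At the edge of the rule, the 535 kept probes that were detected on fewest arrays had a median level of -3.81, and the 677 left out that were detected on most had one of -4.08.

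Of the 4740 probes, 3669 were well above background on all 6 arrays, and only these enter the counts and medians of the comparison. They belonged to 2105 region strands in 1729 regions. The remaining 1071 passed through 1 group only, 137 through PVBL and 934 through sham. They are described apart because passing through a group selects for signal in that group, though single probes can still overlap between groups. PVBL 2 had the fewest position-named probes well above background (27.5%), and its part in the 137 against 934 was not tested. Over all kinds of probe, 24662 of the 27913 tested were well above background on all 6 arrays. The split of the others by group is not given here, so the 137 against 934 cannot be called particular to the region probes.

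RNA from the regions was mostly lower in the regenerating lobe on the 75th percentile scale, and that direction depended on the scale. The median difference, PVBL minus sham, was -0.39 over the 3669 probes, and 82.8% of them lay below 0. By limma with Benjamini-Hochberg adjustment over all 27913 probes tested, 125 were higher in PVBL (3.41%) and 945 lower (25.8%). Over all 24662 probes detected on the 6 arrays, 10.8% were higher and 17.8% lower (28.6% in either direction), with a median of -0.16; over all 27913 tested the shares were 11.3% and 19.3% (30.5% together). RefSeq mRNA probes had a median of -0.08, with 13.6% higher and 15.6% lower, and RefSeq non-coding RNA probes one of -0.23, with 7.72% higher and 23.2% lower. At least 2-fold change was seen in 53 of the 125 higher and 177 of the 945 lower probes. Over all probes detected on the 6 arrays it was seen in 1065 of the 2671 higher and 971 of the 4394 lower. The count of lower probes was 501 without PVBL 1 and 347, 460 and 449 without sham 1, sham 2 and sham 3, and the count of higher probes was 78 without sham 1.

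Scaling by 8 spike-in probes, RNA of known amount added before labelling, moved every difference up by 0.43. The median of the region probes then became 0.04 and 44.8% lay below 0, while that of all probes became 0.27 and that of RefSeq mRNA 0.35. On this scale 115 region probes were higher and 57 lower, against 8.27% higher and 0.993% lower (9.27% together) over all probes detected on the 6 arrays and 9.39% and 1.66% (11.0% together) over all tested. Of the calls of the 75th percentile scale, 96 of the 125 higher and 57 of the 945 lower were called on both, and 24 of the 945 turned sign. The standard error in the spike-in fit was 0.398 for 99.9% of probes, against a median of 0.164 on the 75th percentile scale, so a spike-in call amounts to a difference of at least 1.11. The share of calls that were lower was 88.3% with the 75th percentile, 33.1% with spike-in, 75.8% with median, 86.0% with quantile and 90.7% with normexp scaling.

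The distance between region probes and mRNA probes is not moved by scaling an array. The median difference of the region probes was 0.3 below that of the mRNA probes (-0.3). The medians of both sets lay 2.68, 2.6 and 2.62 apart on the PVBL arrays and 2.3, 2.29 and 2.14 on the sham arrays, so every PVBL array showed the wider gap. Sham 3 had the narrowest gap and also the lowest 75th percentile signal (203).

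Brightness did not order the differences of the region probes. With all probes cut by mean level into 5 classes of equal size, the medians of the region probes were -0.38, -0.39, -0.37, -0.38 and -0.41 from the dimmest to the brightest class. In the mRNA probes the medians were -0.12, -0.04, -0.01, -0.04 and -0.20 in the same classes. Among the 8611 position-named probes above background on no array the median was -0.02, against -0.0 for all 21597 such probes. By region length the medians ran from -0.41 up to 1 kb to -0.36 over 50 kb. Over the 19 chromosomes the medians ran from -0.473 on chromosome 19 to -0.306 on chromosome 2, all below 0.

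Among probes detected on all 6 arrays, the largest rise came from a locus on chromosome 9 that was read on both strands. At chr9:78107225-78118850 the forward probe A_30_P01018914 read 7.73, 8.42 and 8.82 in PVBL and 2.38, 2.66 and 1.16 in sham. The groups were far apart, and the difference was 6.26 ± 0.43 (SE), a 76.5-fold rise with an adjusted p of 0.000163. A second forward probe, A_30_P01028766, rose 49.0-fold (5.62 ± 0.38, adjusted p = 0.000144), and the other 3 forward probes of the region were not kept. In the overlapping forward region chr9:78104935-78116974 the only probe, A_30_P01020518, read 7.63, 8.15 and 8.46 against 5.42, 5.54 and 3.88, a rise of 8.78-fold.

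On the reverse strand of the same region, the 3 probes detected on all arrays all rose, by 3.46 ± 0.27 (A_30_P01021311), 2.50 ± 0.24 (A_30_P01019873) and 1.40 ± 0.24 (A_30_P01033583). The remaining reverse probes, A_30_P01023273 and A_30_P01028123, were detected on every PVBL array but on only 2 of the sham arrays. A_30_P01023273 read -0.48, 0.12 and 0.18 in PVBL and -3.62, -3.12 and -3.76 in sham. PVBL 1 was the lowest PVBL array in every kept probe of this region, on both strands.

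A pair of overlapping forward regions on chromosome 17 rose as well. At chr17:95150800-95180650, A_30_P01019123 read 1.86, 2.07 and 1.64 in PVBL and -3.12, -2.91 and -2.77 in sham, a difference of 4.79 ± 0.16 or 27.7-fold (adjusted p = 8.14e-06). At chr17:95149413-95174473 the only probe, A_30_P01017632, read 1.34, 1.7 and 1.46 against -3.14, -2.91 and -2.82, or 21.9-fold. The rise was not shared by the other probes of the locus. The second forward probe of the first region, A_30_P01018023, was above background on 2 PVBL arrays and 1 sham array. Of 3 reverse probes, A_30_P01024879 differed by -0.05 ± 0.16 and A_30_P01032296 fell by 0.67 (-0.67 ± 0.16, adjusted p = 0.0236), a call that was lost without any single sham array (adjusted p of 0.0523 to 0.069). A_30_P01032296 was also not called on the spike-in scale (-0.24, adjusted p = 0.844) or with the replicate number as a block (adjusted p = 0.0534). The remaining reverse probe, A_30_P01026760, read 0.27 on PVBL 1 alone and -3.43 and -3.25 on the other PVBL arrays, against -3.45, -3.23 and -2.56 in sham.

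Single probes marked the rises on chromosomes 2 and 7. At chr2:77715502-77719430 the only probe, the forward probe A_30_P01018122, read 5.47, 5.48 and 6.12 in PVBL and 1.73, 1.7 and 1.33 in sham, a 17.2-fold rise (4.10 ± 0.22). At chr7:13533925-13544525 the forward probe A_30_P01018981 read 0.3, 0.57 and 0.33 against -3.85, -3.39 and -3.61, or 16.2-fold (4.02 ± 0.16). Its sham level lay near the dimmest signals that counted as above background, and with normexp on the median signals its fold was 4.74. That setting made 7 of the 12 largest rises more than 1.5 times smaller: besides this probe they were A_30_P01019123 (8.59-fold), A_30_P01017632 (8.69), A_30_P01021311 (5.87), A_30_P01019873 (2.23), A_30_P01033599 (2.59) and A_30_P01027393 (2.16). A_30_P01018914 was at 76.6-fold.

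Chromosome 1 held the last of the 12 largest rises. At chr1:138570107-138632310, forward, 5 of 10 probes were detected on all arrays, and 4 of them rose. A_30_P01033599 read -0.32, -0.31 and -0.35 in PVBL and -3.19, -2.75 and -2.36 in sham (2.44 ± 0.21), and A_30_P01027393 rose by 2.43 ± 0.17. A_30_P01031419 rose by 1.53 and A_30_P01028909 by 0.53, while A_30_P01017931 differed by -0.39 (adjusted p = 0.14) with overlapping groups. The reverse probe A_30_P01023528 of the region fell by 0.63 (-0.63, adjusted p = 0.0165). On the spike-in scale that fall was not called (-0.2, adjusted p = 0.874). At chr1:36012298-36020311 the reverse probe A_30_P01029277 read 0.26, 0.59 and 0.8 against -1.67, -1.64 and -1.76, or 4.72-fold, and the other 3 probes of that strand were not kept. All 12 rises kept their call in each alternative fit of single probes, with differences between 1.11 and 6.69.

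Falls were smaller and varied more among the sham arrays. The largest was at chr8:49866197-49866841, reverse, where A_30_P01027172 read -1.86, -1.52 and -2.57 in PVBL and 1.47, 0.39 and 2.47 in sham. It fell by 3.42 (-3.42 ± 0.52, adjusted p = 0.00444). At chr4:135896689-135918414, reverse, A_30_P01024647 read 0.19, 0.82 and -0.3 against 3.48, 2.72 and 4.17, and sham was 9.31-fold higher. A second probe of that strand, A_30_P01027837, differed by -0.16 (adjusted p = 0.637), so the fall did not run along the region.

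The same held for most of the falling regions that had another detected probe. At chr7:50509139-50526856, reverse, A_30_P01022043 fell by 2.78 (-2.78 ± 0.38), from 3.72, 3.01 and 4.5 in sham to 0.9, 1.37 and 0.63. There A_30_P01029734 fell by 0.58 (-0.58) and the much brighter A_30_P01022987 differed by -0.47 without passing the test (adjusted p = 0.198). At chr10:87541696-87547421, reverse, A_30_P01017959 fell by 2.75 (-2.75 ± 0.37) and A_30_P01026450 differed by -0.36 (adjusted p = 0.219). At chr13:108548345-108679004 the only detected forward probe of 10, A_30_P01025700, read -2.16, -1.99 and -2.18 in PVBL and 0.69, -0.23 and 1.35 in sham. At chr9:30793551-30817648, reverse, A_30_P01030729 fell by 2.59 (-2.59 ± 0.18) and A_30_P01031029 differed by 0.11. By contrast, at chr8:74431707-74442440, forward, A_30_P01029152 and A_30_P01025568 both fell, by 2.28 (-2.28) and 2.11 (-2.11), and A_30_P01029172 differed by 0.03.

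The other falls among the 12 largest were A_30_P01031184 (-2.44, chr4:15230638-15231187, forward), A_30_P01032248 (-2.32, chr12:111824094-111838478, forward), A_30_P01018444 (-2.25, chr6:67155508-67216941, reverse), A_30_P01030169 (-2.20, chr10:92547995-92556102, forward) and A_30_P01024656 (-2.15, chr17:26911397-26917047, forward). In 7 of the 12 falls sham 3 was the highest and sham 2 the lowest sham array, a shared order seen after the values were known. A_30_P01031184 lost its call without PVBL 1 or any single sham array (adjusted p of 0.0515 to 0.0611), and A_30_P01030169 without sham 1 or sham 2 (0.0586 and 0.0511). With normexp on the median signals 5 of the 12 falls were more than 1.5 times smaller, A_30_P01027172 at 6.59-fold, A_30_P01025700 at 3.79, A_30_P01030729 at 2.73, A_30_P01031184 at 2.71 and A_30_P01032248 at 2.92. All 12 stayed below 0 on the spike-in scale, between -2.99 and -1.73.

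Some probes were detected in 1 group alone, and for these a fold is a lower bound set by the dimmest signal that counted as above background. The bounds hold for the processed signal. The counts that follow are of region probes, and those over all probes are not given beside them. On all PVBL arrays and no sham array 44 probes were detected, 31 of them with a bound of at least 2-fold. All 3 probes of chr17:34018371-34019394, reverse, were among them: A_30_P01023554 read 1.39, 1.77 and 1.13 in PVBL, at least 48.4-fold higher, A_30_P01028287 was at least 30.9-fold and A_30_P01019819 at least 18.5-fold higher. A_30_P01021179 (chr6:134879009-134880130, forward) was at least 47.0-fold higher, and its PVBL levels were 1.28, 2.1 and 0.79. The forward probe A_30_P01033054 at chr5:35893909-35899497 read 1.22, 1.35 and 0.82 and was at least 39.4-fold higher. With normexp on the median signals all 5 fell short of these bounds, with log2 differences of 3.42 for A_30_P01023554, 2.82 for A_30_P01028287, 2.52 for A_30_P01019819, 3.39 for A_30_P01021179 and 3.04 for A_30_P01033054.

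On all sham arrays and no PVBL array 164 probes were detected, and 31 had a bound of at least 2-fold. Their bounds were small beside those in PVBL: the highest was at least 4.3-fold lower in PVBL for A_30_P01021418 (chr13:59245617-59245945, reverse), where sham 1 read -0.51 and the other sham arrays -2.87 and -2.74. A_30_P01025630 (chr15:79764481-79809909, forward), A_30_P01020974 (chr8:114477602-114488627, forward), A_30_P01021494 (chr6:129151512-129208737, forward) and A_30_P01018322 (chr5:79845827-79846360, reverse) were at least 3.91, 3.87, 3.24 and 2.88-fold lower. With normexp on the median signals these 5 were 1.67-fold to 2.0-fold lower, short of the bounds. The strands of the first 4 also held probes detected on all 6 arrays, 1 at chr13:59245617-59245945 (-0.44), 4 at chr15:79764481-79809909 (median -0.37), 1 at chr8:114477602-114488627 (-0.62) and 2 at chr6:129151512-129208737 (median -1.13), so these regions were not confined to sham.

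How far probes laid along the same strand of a region shared a direction depended on the scale. In 393 region strands with at least 3 probes detected on all arrays, holding 1504 probes, the differences had 1 sign throughout in 296 (75.3%), of which 260 were below 0, on a scale where 82.8% of all region probes lay below 0. On the spike-in scale 208 of the 393 had 1 sign (52.9%), 72 below 0 and 136 above. The median SD among the probes of a strand was 0.15, against an SD of 0.48 among the medians of the strands. Every probe was called lower in 24 of the 393 and higher in 5. The 125 higher probes lay in 73 region strands, 24 of which held at least 2 of them, and the 945 lower probes lay in 727, of which 142 held at least 2.

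The region strand with most probes called lower was chr17:26911397-26917047, forward. All 10 of its probes fell, between -2.15 and -1.64, and by -1.73 to -1.21 on the spike-in scale. A_30_P01024656 read -0.33, -0.65 and 0.66 in PVBL and 2.27, 1.92 and 1.94 in sham, and PVBL 3 was the least lowered array in each of the 10 probes. In the overlapping forward region of 3 probes, chr17:26911032-26912366, both detected probes fell as well, with a median of -1.42. By contrast, the 10 probes of chr16:43623581-43642715, forward, differed by -0.41 to -0.26 with overlapping groups, and none was called.

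At chr6:129151512-129208737, reverse, 7 of 9 detected probes fell, some by far more than others. A_30_P01022593, A_30_P01025159, A_30_P01027568, A_30_P01033086 and A_30_P01028297 fell by -2.12, -2.01, -2.01, -1.93 and -1.70. A_30_P01017646 and A_30_P01018888 fell by -0.76 and -0.69, and neither held without PVBL 1, PVBL 3, sham 1 or sham 3 (adjusted p of 0.0541 to 0.103). On the spike-in scale neither was called (-0.34 and -0.26, adjusted p = 0.746 and 0.822), while the probes named before them kept their calls. A_30_P01028919 and A_30_P01020557 differed by -0.64 and -0.53 and did not pass. The forward strand of that region held A_30_P01017796, which fell by 2.02 (-2.02, adjusted p = 0.000626), and the brighter A_30_P01029340, which differed by -0.25 (adjusted p = 0.294).

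At chr5:74487385-74497428, forward, A_30_P01032580 alone of 9 probes was called (-0.45, adjusted p = 0.0327). That call was lost without any array but PVBL 3 (adjusted p of 0.0565 to 0.104) and, with the replicate number as a block, had an adjusted p of 0.0599. At chr19:5771425-5848475, forward, the 9 probes ran from -0.58 to 0.68 and none was called. Its brightest probe, A_30_P01020769, read 5.06, 4.81 and 5.9 in PVBL and 4.84, 4.53 and 4.36 in sham, with PVBL 3 highest.

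Other regions with several called probes were chosen after their values were seen. At chr16:23992037-24001037, forward, all 5 detected of 7 probes fell, from -1.66 (A_30_P01020303) to -1.41 (A_30_P01021853). At chr5:137392195-137426421, forward, all 5 detected of 9 fell, from -1.18 (A_30_P01028102) to -0.95 (A_30_P01024562). On the spike-in scale the medians of these strands were -1.07 and -0.59, and no call was kept at chr5. At chr16 A_30_P01020303 kept its call (-1.23) and A_30_P01021853 did not (-0.98, adjusted p = 0.0987). Rises along a whole strand were seen at chr9:14460976-14488051, forward, where 5 of 5 probes rose by 0.71 to 0.94, and at chr3:40439525-40509975, forward, where 4 of 4 rose by 0.79 to 1.13. All 3 probes of chr3:10081893-10094218, forward, rose by 1.49 to 1.68. On the reverse strand of the last of these regions A_30_P01028845 fell by 0.67 (-0.67, adjusted p = 0.0388). At chr3:40439525-40509975 both reverse probes fell too, A_30_P01022679 by 1.24 (-1.24) and A_30_P01024884 by 0.54 (-0.54). On the spike-in scale the reverse medians were -0.247 at chr3:10081893-10094218 and -0.46 at chr3:40439525-40509975. None of these reverse falls reached the 1.11 of a spike-in call.

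In 7 region strands probes were called in both directions on the 75th percentile scale. The lowest difference was -1.83 at chr4:94719930-94825776, forward, and -0.94 to -0.43 in the others. On the spike-in scale differences lie 0.43 higher and a call needs at least 1.11, so the others hold no lower call there. At chr6:116092274-116144199, reverse, 5 of 9 probes rose and 3 fell. A_30_P01031738 read 1.82, 2.12 and 1.44 in PVBL and -0.01, 0.05 and -0.11 in sham (1.82 ± 0.19), while A_30_P01017520 read -3.53, -3.6 and -3.26 against -3.05, -2.77 and -2.55 (-0.68 ± 0.17). The forward region chr6:116123643-116124550 lies inside it, and its 3 probes rose by 1.76 to 1.85. A_30_P01026611 there read 7.32, 7.58 and 6.97 in PVBL and 5.56, 5.47 and 5.51 in sham. The 3 forward probes of the longer region, among them A_30_P01023523 at 8.4, 8.85 and 8.72 against 8.85, 9.0 and 9.4, differed by -0.43 to -0.33 and were not called.

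A comparable split was seen at chr16:90038086-90127636, where 4 of 6 reverse probes rose by 0.97 to 1.30, A_30_P01017534 fell by 0.57 (-0.57, adjusted p = 0.025) and both forward probes rose (1.23 and 1.19). At chr14:77006215-77063293, reverse, 5 of 8 probes rose by 0.99 to 1.16. The other 3, A_30_P01022671, A_30_P01027808 and A_30_P01029315, differed by -0.23, -0.52 and -0.42 and did not pass.

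Both strands were detected on all arrays in 376 regions. The median differences of the strands had the same sign in 302 (80.3%), of which 283 were both below 0 and 19 both above. On the spike-in scale the signs matched in 208 (55.3%). Across these regions the strands' differences were weakly related (Pearson r = 0.24, Spearman rho = 0.11), as a description over regions that share arrays and scaling. The median distance between the strands was 0.26, and it was over 1 in 37 regions. On the 75th percentile scale, at least 1 probe was lower on both strands in 69 regions and higher on both in 4. On that scale the strands had calls in opposite directions in 12 regions with the forward strand higher and 4 with the reverse strand higher. Such calls were not counted on the spike-in scale, where 57 of the 945 lower calls remained. The widest distance was at chr17:95150800-95180650, described above, followed by chr9:78107225-78118850, where both strands rose, and chr13:108548345-108679004. In the last, the forward probe A_30_P01025700 fell by 2.72 (-2.72) and the reverse probes A_30_P01019473 and A_30_P01023760 differed by -0.50 and -0.16.

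None of the 5 brightest region probes was called. A_30_P01027122, reverse at chr1:193875525-193978800, read 9.84, 10.09 and 9.91 in PVBL and 9.75, 9.8 and 10.36 in sham, with overlapping groups and a difference of -0.03 ± 0.19. A_30_P01031448 (chr14:78924115-78938125, forward), A_30_P01022075 (chr17:17481706-17482457, reverse), A_30_P01031264 and A_30_P01020570 (chr12:73838608-73862621, reverse and forward) differed by -0.48 to -0.42. On the spike-in scale these 4 differed by -0.05 to 0.0. Among the 200 brightest, the smallest differences were those of A_30_P01028412 and A_30_P01021063 (chr10:74325583-74396665, reverse), A_30_P01031031 (chr13:58474388-58487288, reverse), A_30_P01025554 (chr8:72663591-72671154, forward) and A_30_P01027122, all between -0.03 and 0.02. A_30_P01031031 read 4.19, 4.33 and 4.07 in PVBL and 4.2, 4.18 and 4.17 in sham. On the spike-in scale these 5 differed by 0.40 to 0.45.

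Of 6 known non-coding RNAs listed as a reference, 4 were found on the same arrays, and H19 and Gas5 were not. Malat1 and Neat1, abundant nuclear RNAs, differed by 0.23 and 0.53, and Meg3, an imprinted non-coding RNA, by 0.21, and none was called. The Malat1 probe was dim here, with mean levels of -1.71 in PVBL and -1.94 in sham. Snhg1, a host gene of small nucleolar RNAs, fell by 0.55 (-0.55, adjusted p = 0.0403), a call not made on the spike-in scale (-0.13).

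Markers of other liver cells also differed between the groups. Of 4 biliary markers 2 were higher, Krt19 by 1.52 and Krt7 by 1.44, and the summed level was 0.11 to 0.98 in PVBL against -0.84 to -0.47 in sham. Krt7 was above background on only 2 of the sham arrays and entered the test through PVBL only. The 4 endothelial markers summed to 5.41 to 5.93 against 6.59 to 6.69, with Clec4g lower (-1.49). Of 4 Kupffer cell markers only Marco was called, higher by 2.52, while Clec4f, Vsig4 and Adgre1 differed by -0.57, -0.52 and -0.35, and the list summed to 5.5 to 6.95 against 5.64 to 5.86. The stellate list summed to 6.42 to 6.54 against 6.7 to 6.85, with Lrat lower (-1.23) and Reln at 0.85 (adjusted p = 0.103), and T and B cells to 2.2 to 2.7 against 2.71 to 3.05, with Cd3g lower (-0.70). Red cell genes summed to 6.7 to 8.4 against 7.74 to 8.13, with Alas2 lower (-1.09). On the spike-in scale Lrat, Cd3g, Clec4g and Alas2 were not called (-0.81, -0.28, -1.06 and -0.66), Reln was (1.27), and Krt19, Krt7, Marco and the 4 proliferation genes kept their calls. Of the pancreas markers none was called, and the defining gene Prss1 was above background on 1 array of each group. The part of these cells in the region probes' differences was not tested.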

How the data were processed

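The deposited scanner files hold 1 intensity per spot (processed signal, background-subtracted by Agilent Feature Extraction, version 10.7.3.1 per the file headers and 9.1 per the submitters' processing notes), with flags for outliers and for signal well above background. The file headers give the mm9 build. The authors' deposited table holds log2 values of 7850 probes, centred per probe; its values followed the scaled log2 signal (r of 0.9997 to 0.9998, column medians -0.215 to 0.177) and PVBL and sham did not overlap in any of its rows (100%), so it served only as an alternative.

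Spots marked as outliers were left out, spots of a probe averaged, and log2 signals scaled to each array's 75th percentile. Group differences were fitted with limma 3.58.1 (R 4.3.3; lmFit and eBayes, no covariate, two-sided) over the 27913 probes detected in every sample of PVBL, of sham or of both, with Benjamini-Hochberg adjustment and a threshold of 0.05. The fit was tested on simulated data. For 6 probes detected on all arrays 1 array value was missing as an outlier. A bound compares the detected group's mean with the mean, per array, of the higher of the dimmest signal well above background and the probe's own signal. The alternatives were scaling by spike-in, median or quantile; normexp (offset 50) on median signals, which changes both the background method and the signal column; filters; outliers; array weights; replicate block; each array left out; regions averaged; region probes alone.

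Probes named in the text were chosen by rule: the 12 largest rises and falls among called probes detected on all 6 arrays, up to 5 per direction detected in 1 group alone, the 5 brightest, the 5 smallest differences among the 200 brightest, the 3 regions of widest strand distance and the 5 with most probes. Other probes of those regions are named beside them, and regions with several called probes or with calls in both directions were chosen after their values were seen. Chromosome 18 regions were not named. Members and lists were chosen with earlier results of these data known. Neighbouring genes were not analysed here, because the gene table used is of another build, and no probe sequences were used. Marker genes were matched by RefSeq accession.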

Additional observations from a re-analysis of the deposited data

How the results depend on the processing

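The count of probes called higher was 125 in the fit reported and 64 with no filter on dim probes, 55 when probes of a region strand were averaged (2105 strands tested in place of single probes), and 78 to 143 when each array was left out in turn. The count called lower was 945, and 57 with spike-in scaling, 530 with median scaling, 209 with no filter on dim probes and 347 to 951 when each array was left out. With array weights the counts were 182 and 1342. With the 75th percentile, spike-in and median scaling, 25.8%, 1.55% and 14.4% of the region probes were lower. Over all probes detected on the 6 arrays these shares were 17.8%, 0.993% and 10.6%. The shares higher were 3.41%, 3.13% and 4.61% of the region probes, against 10.8%, 8.27% and 14.2% of all. For the filters, array weights and arrays left out, the share over all probes is not given here. The median difference was -0.385, and 0.042 with spike-in scaling, -0.253 with median scaling, -0.311 with normexp, -0.604 in the authors' table (970 of the probes, all with the groups apart) and -0.406 to -0.328 when each array was left out. The 24 largest rises and falls kept their direction in every fit that held them, and 10 of the 12 falls kept their call with no filter. A_30_P01027122 turned from -0.03 to 0.41 with quantile normalization, and the cause was not tested. With the replicate number as a block, 116 probes were higher and 744 lower. Same-numbered arrays correlated by 0.234, -0.07 and 0.229 in their deviations from the group means. PVBL 1 and PVBL 3 correlated best with the sham array of their own number, and PVBL 2 with sham 1 (0.1). Whether the numbers pair the samples was thus not settled, and they were not taken to do so. The alternatives on neighbouring genes were not run, and for strands the stricter filter is the fit reported, since only probes detected on all arrays entered it. At 3 arrays a group, the arrays' number limits the precision, and probes near background have understated or unstable folds.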

Other observations

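Chromosome X, which the rule leaves out, held 577 further position-named probes, of which 109 were detected on all arrays. Their median difference was -0.37, or 0.06 when spike-in probes set the scale, and 3 were higher and 23 lower. A further 13 probes had a position for a name without a strand, and only 2 of them were detected on all arrays. Of those tested, 5 were called higher and 0 lower. Some of these 5 therefore passed through a single group only, which selects for signal in that group. Their count is not comparable with the counts of probes detected on all arrays.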
